A study of Homo sapiens with 4 samples.

Results

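The genes described here encode the factors that start and extend protein synthesis, the initiation factors (symbols beginning EIF) and the elongation factors (symbols beginning EEF). They were taken by symbol from the protein-coding genes of RefSeq on GRCh38, leaving out EIF4A3 and the EIF2AK kinases, which gave 66 genes. Of these, 65 lie on chromosomes 1 to 22 and X, among 19974 protein-coding genes there, and were analysed. The remaining one, EIF1AY, lies on chromosome Y, which was not analysed here. The data are peaks of RNA polymerase II (Pol II), called from chromatin immunoprecipitation and sequencing (ChIP-seq) of U2OS, an established line of human osteosarcoma cells. One library came from cells given the control siRNA (labelled NC) and the other from cells given siRNA against NKAP, an RNA-binding nuclear protein, each for 48 h. Both groups were thus transfected, no untransfected cells were used here, and each group also had 1 input library without an antibody, whose reads were not analysed here. With 1 Pol II library per siRNA, no difference below has a replicate check and none was tested. The files hold no measure of the NKAP transcript, so the depletion itself was not checked.

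Protein synthesis starts when EIF2 brings the initiator tRNA to the small ribosomal subunit, EIF3 and EIF4F bring the capped mRNA to it, and EIF1, EIF1A and EIF5 control the choice of start codon. EIF5B then joins the large subunit, EEF1A delivers each further aminoacyl-tRNA, and EEF2 moves the ribosome along the message. Cells transcribe many of these genes at high and steady rates. Transcripts of several, EEF1A1 and EEF2 among them, begin with a run of pyrimidines (the 5′ terminal oligopyrimidine tract), through which growth signals control their translation.

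The Pol II lists covered nearly all of these genes in both libraries, and less sequence in the knockdown list. The window of a gene ran from 5000 bp before its lower end to 5000 bp after its higher end, and a peak sharing at least 1 bp with it was counted. In the control list 62 of the 65 genes had a window peak, against 70.1% of all protein-coding genes. The knockdown list also had 62, against 66.5%. The same 62 genes carried peaks in both lists, and no member had a peak in one list only. Of all genes, 71.8% had a peak in either list, and of these 7.43% lacked a knockdown peak and 2.43% lacked a control peak. The 3 genes with no peak were EIF5AL1, a close copy of EIF5A, EIF2S3B, a close copy of EIF2S3, and EEF1AKMT1, which encodes a methyltransferase of EEF1A. How reads of near-identical copies were placed was not given in the sources used here. No peak means only that nothing passed the authors' threshold.

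The control list held 254 distinct peaks in these windows and the knockdown list 185. Together they covered 295.6 kb (control) and 202.9 kb (knockdown), a ratio of 0.686, with mean peak widths of 1233 and 1127 bp. Fewer peaks were called under NKAP siRNA at 34 of 62 genes (43.4% of all genes), more at 11 (14.6%) and the same number at 17 (42%). Over the windows of all protein-coding genes the ratio was 0.627. Of the 62 genes, 55 had less covered length in the knockdown list, against 86.1% of all genes, and 7 had more, against 13.9%. The median gene kept 0.692 times its control length here and 0.652 times over all genes. Both shares and both medians lay close to the background. In 11 of the 62 genes the knockdown length was at most 0.5 times the control length, against 28.4% of all genes. No member reached 2 times its control length, against 3.41% of all genes. By the lowest local backgrounds, the NKAP siRNA library was 0.857 times as deep as the control library, and 0.793 times as deep at the scale its peaks were called. With equal numbers of strongest peaks in both lists the ratio was 0.765 for these genes and 0.696 for all genes, and 5 of 62 members were at or under 0.5 times, against 20.8% of all genes. EIF2B2, EIF2B4, EIF3K, EIF3L, EIF4G2 and EEF1D then lay above it, between 0.502 and 0.780 times. The part of depth in the covered lengths was not tested further.

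**Figure D1:**
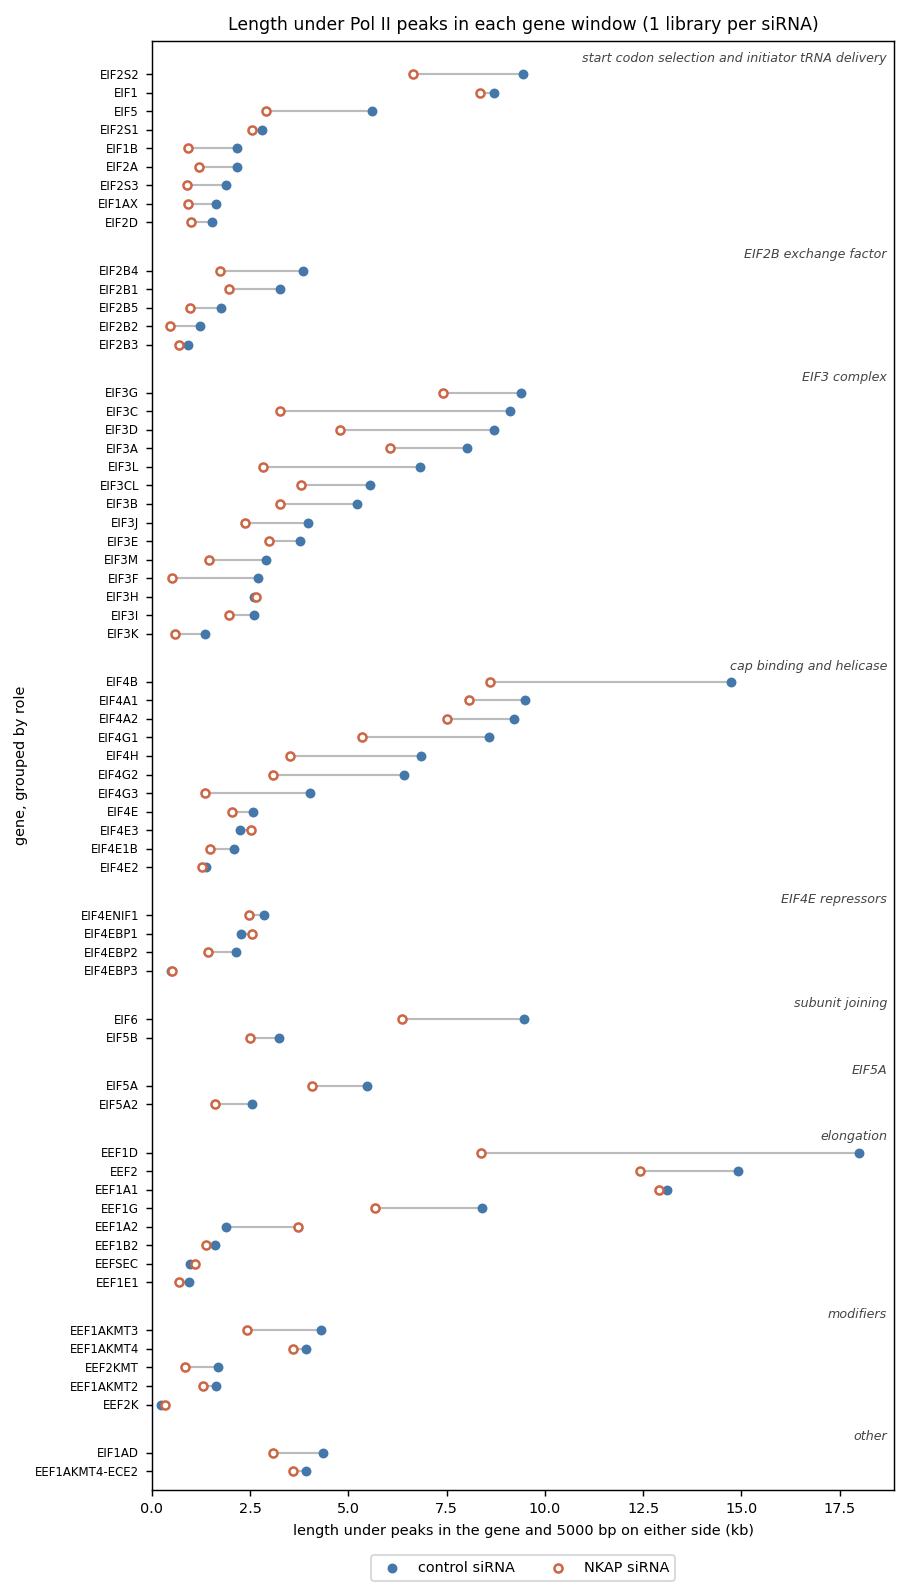
Length under Pol II peaks (kb) in the window of each of the 62 genes with a peak, grouped by role, with the control siRNA library as filled points and the NKAP siRNA library as open points. In 55 genes the open point lies to the left, EEF1D has the longest control length (18002 bp) and EEF1A2 the largest gain (1887 to 3726 bp).

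The strongest Pol II peaks of the group lay at EEF1A1, EIF1, EIF4G2, EEF2, EIF4A1, EIF4A2, EEF1D and EIF3A, ranked by the highest fold in either list. Fold here is the authors' value, the enrichment of a peak's summit over the local background. EEF1A1, which encodes the major EEF1A, lies on chromosome 6 from 73515750 to 73521032 on the minus strand. In the knockdown list its peak had a fold of 77.9, the highest of all protein-coding genes, and in the control list a fold of 49.4, rank 164. The reads recovered at the summit had the opposite order. There were 196 reads in the control library (95% Poisson interval 170 to 225) and 158 in the knockdown library (134 to 185). The local background under these summits was 2.99 reads in the control library and 0.890 in the knockdown library. Scaled by depth, the knockdown summit stood at 0.941 times the control summit (0.758 to 1.17). All intervals on reads cover counting error only.

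At EEF2, EIF4G2 and EIF4H too, the fold and the local background moved in opposite directions. EEF2, the translocase, on chromosome 19 from 3976056 to 3985463, had folds of 53.4 (control) and 17.4 (knockdown) with 129 and 93 reads at the summit over backgrounds of 1.44 and 4.00 reads. EIF4G2, a scaffold related to EIF4G1 that acts without EIF4E, had folds of 69.1 and 25.9 with 147 and 111 reads over 1.14 and 3.00 reads. EIF4H, a cofactor of the EIF4A helicase, moved the other way in fold, from 15.1 to 31.0, with 74 and 64 reads over 3.98 and 0.945 reads. Reads at the summit are therefore given for the genes below, and folds only to rank peaks within a list.

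The sequences around the starts of EEF1A1, EEF2, EIF1, EIF4A1 and EIF4A2, all among the strong members, are shown because they share an element near the start. EIF4B and EEF1B2, outside the 8 of highest fold, also have it and are shown too. EEF1B2 has it at its second annotated start and not at the start at the gene's own end. Each runs 5′ to 3′ from 60 bases before to 15 bases from the annotated start (RefSeq, GRCh38.p14), and capitals mark TATAA and the start-site pyrimidine motifs named below. EEF1A1 is read from chr6:73521018-73521092 (minus strand), EEF2 from chr19:3985449-3985523 (minus), EIF1 from chr17:41688825-41688899 (plus), EIF4A1 from chr17:7572765-7572839 (plus), EIF4A2 from chr3:186783517-186783591 (plus), EIF4B from chr12:53006396-53006470 (plus), EEF1B2 from its second annotated start at chr2:206159835-206159909 (plus), and EIF4G2, shown for contrast, which has neither element here and has CTTCC at an inner annotated start, from chr11:10808912-10808986 (minus).
EEF1A1: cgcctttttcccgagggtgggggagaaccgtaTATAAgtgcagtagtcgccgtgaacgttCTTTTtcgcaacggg
EEF2: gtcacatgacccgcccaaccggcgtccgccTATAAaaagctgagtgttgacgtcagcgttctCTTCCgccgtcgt
EIF1: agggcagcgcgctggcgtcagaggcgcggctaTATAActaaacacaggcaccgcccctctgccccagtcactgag
EIF4A1: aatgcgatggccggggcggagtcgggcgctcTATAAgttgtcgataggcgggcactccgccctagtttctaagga
EIF4A2: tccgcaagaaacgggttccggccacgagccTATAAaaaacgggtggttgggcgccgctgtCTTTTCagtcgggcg
EIF4B: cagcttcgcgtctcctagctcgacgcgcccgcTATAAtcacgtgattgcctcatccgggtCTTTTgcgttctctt
EEF1B2: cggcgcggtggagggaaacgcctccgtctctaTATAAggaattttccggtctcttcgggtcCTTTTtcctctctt
EIF4G2: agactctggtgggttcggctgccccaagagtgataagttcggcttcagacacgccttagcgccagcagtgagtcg

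TATAA is the core of the TATA box, which positions the initiation machinery at a minority of promoters. It was looked for after these sequences had been seen, with its first base 40 to 21 bases before the start, on the gene's strand. Of the 52 members with a promoter entry, 7 had it, all of them shown above, or 13.5%, against 6.72% of 15812 protein-coding genes. These 7 included 5 of the 6 members of highest fold that have a table entry, the exception being EIF4G2. Since the motif was picked from the starts of members ranked by fold, this overlap follows in part from that choice, and folds are not compared between members with and without it. Over all genes the TATAA carriers had a window peak less often, in 45.3% of cases in the control list against 73.9% of the genes without it. The carriers with a control peak had a median highest fold of 16.2, against 14.0. A match of letters is a description and shows no bound factor.

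The start-site pyrimidine motifs were searched within 20 bases of the start on the gene's strand. At least 1 of 5 was found at 21 of 52 members (40.4%), against 20.7% of all genes. CTTTT stood at 11 members (21.2% against 5.66%), among them EEF1A1, EEF1B2, EIF3D, EIF3M and EIF6. CTTCC stood at 11 (21.2% against 13.9%), CTTTTC, which contains CTTTT, at 5 (9.62% against 2.16%), CTTTCC at 3 (5.77% against 2.81%) and CTCTTTC at 2 (3.85% against 0.936%). The members with a motif had a median highest fold of 18.3 in the control list and those without 15.8. Within the whole 300-base promoter window, on both strands, the E-box CACGTG, the letters recognised by MYC, was found at 14 members (26.9% against 10.9% of genes), among them EIF4E, EIF4G1, EIF4B and EIF4H. The ETS motif CCGGAAG was found at 15 (28.8% against 16.5%), the YY1 motif AAGATGGC at 5 (9.62% against 4.67%) and the SP1 motif GGGCGG at 41 (78.8% against 64.2%). CCAAT was found at 24 (46.2% against 42.1%), TATAAA at 3 (5.77% against 12.4%) and TGACGTCA at 1 (1.92% against 3.00%), while the NRF1 motif was found at none. EEF1AKMT4 and the readthrough gene EEF1AKMT4-ECE2 begin at the same base, and both count in the E-box, SP1 and CCAAT numbers.

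At EEF1A1 and EIF1, peaks ran over the whole gene and past its 3′ end in both lists, and at EEF2, EIF4A1 and EIF4A2 several peaks covered most of it. EIF3A, a longer gene, had 14.0% (control) and 10.6% (knockdown) of its window under peaks. A single control peak of 11312 bp spanned EEF1A1, and a single knockdown peak of 12321 bp did as well. Peaks covered 13105 bp of its window (control) and 12911 bp (knockdown), or 85.8% and 84.5% of it. EIF1, on chromosome 17 from 41688885 to 41692668, was spanned by 1 control peak of 8715 bp. In the knockdown list a peak of 6848 bp and a pair of shorter ones downstream took its place, and the covered length went from 8715 to 8341 bp. EEF2 had 14922 bp under 4 control peaks and 12424 bp under 7 knockdown peaks, so that more peaks here meant a broken cover and not a longer one. EIF4A1 and EIF4A2, the paralogous helicases of EIF4F, had 9487 and 9218 bp in the control list and 8069 and 7501 bp in the knockdown list. EIF4G2 differed from these, with 6408 bp under 6 control peaks and 3076 bp under 2 knockdown peaks. Its start and a site past its 3′ end kept a peak in both lists, and its 3 interior peaks were in the control list only, with 12 to 14 reads at their summits. The start peak of EIF4A1 also touched SENP3. Here and below, a peak is said to touch another protein-coding gene where it lies within 1000 bp of an end of that gene.

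**Figure D2:**
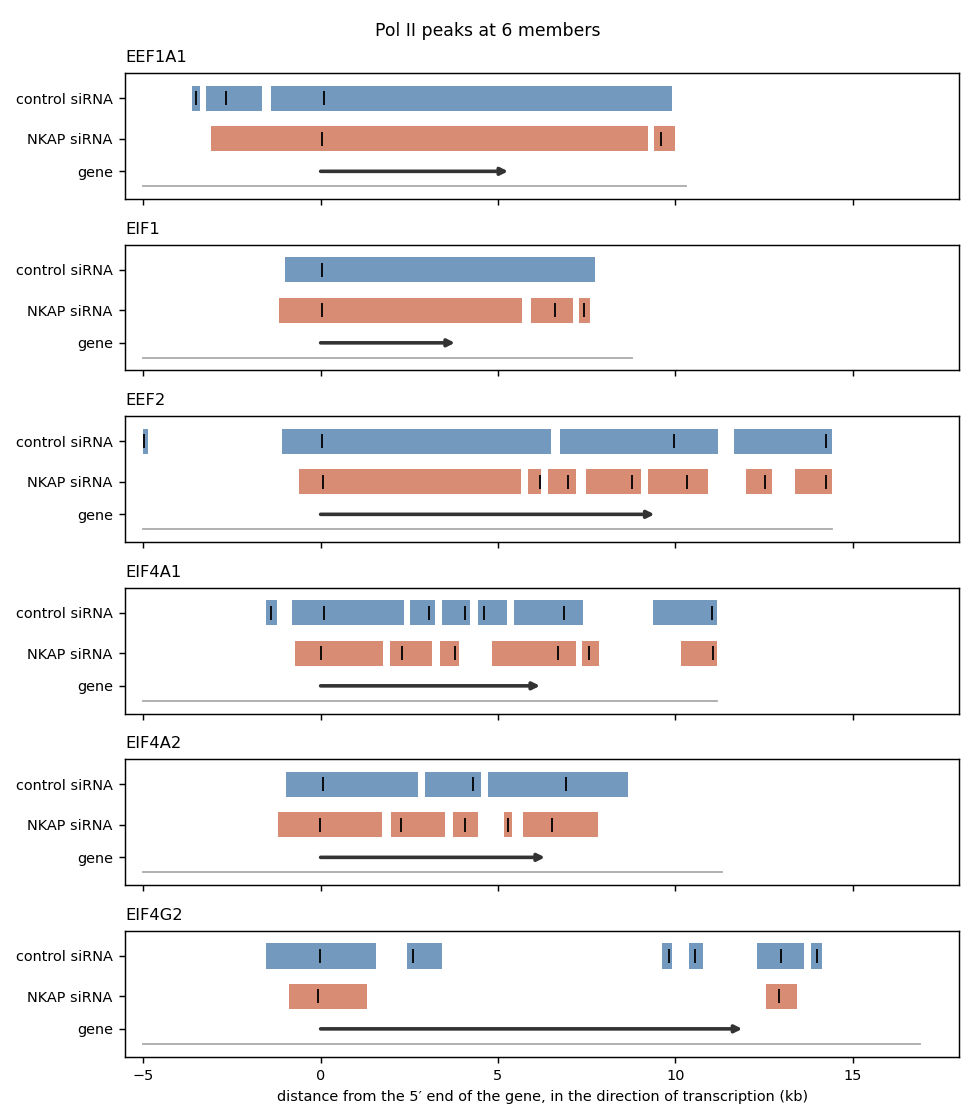
Pol II peaks (bars, with a black tick at each summit) in the control and NKAP siRNA lists at EEF1A1, EIF1, EEF2, EIF4A1, EIF4A2 and EIF4G2, drawn by distance from the 5′ end of the gene (kb) in the direction of transcription. The arrow is the gene and the grey line its window. Peaks lie past the 3′ end of each of the 6 genes in both lists, and the interior peaks of EIF4G2 are in the control list only.

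The start of the genes kept the most of its covered length, and the upstream flank and the body the least. These zones were set for the 51 members of at least 2001 bp with a strand in the promoter table, the start and end being the 1000 bp on either side of the gene's ends. At the start, 47 of the 51 had cover in both lists and none in a single list. The covered start fell from 75.1 to 63.4 kb, a ratio of 0.844, where all genes had 0.779. The body fell from 60.1 to 33.1 kb (0.551, all genes 0.513). Body cover was in both lists at 21 members, in the control list only at 10 and in the knockdown list only at 2. Over all genes these counts were 4442, 2086 and 334. The end went from 23.1 to 16.0 kb (0.692, all genes 0.599), the downstream flank from 46.8 to 31.0 kb (0.661, all genes 0.577) and the upstream flank from 16.2 to 8.57 kb (0.527, all genes 0.530). The start ranked first of the zones in both sets.

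**Figure D3:**
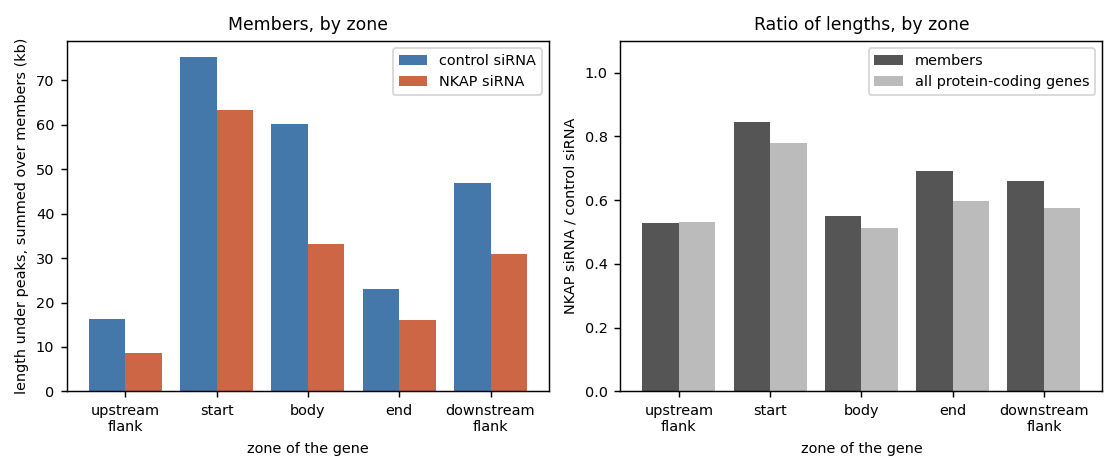
Left, length under peaks (kb) summed over 51 members in each zone for the control and NKAP siRNA libraries. Right, the ratio of the knockdown to the control length for the members and for all protein-coding genes with a strand. The start has the highest ratio in both sets (0.844 and 0.779).

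At the start itself, 48 of 52 members with a strand had a peak in both lists and none in 1 list only, against 90.8% in both lists among all genes with a start peak. The start peak was narrower in the knockdown list at 40 of these 48, against 84.8% of all genes. Its median width went from 2119 to 1404 bp in the members and from 1533 to 1111 bp over all genes. The median summit lay 52.5 bp (control) and 17.5 bp (knockdown) downstream of the 5′ end, against 46.0 bp in both lists over all genes. By gene ends on either side, without regard to strand, 61 members had a peak in both lists and 0 in a single list, against 89.7% in both lists among all genes with such a peak. Of all such genes 7.92% had it only under control siRNA and 2.38% only under NKAP siRNA. The remaining member with peaks, EIF4ENIF1, which encodes a carrier of EIF4E into the nucleus, had its main peak at an inner annotated start. That summit lay 190 bp from the start (control) and 344 bp (knockdown).

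Reads at the tallest summit of each window differed little between the libraries once scaled by depth. The median gene had 49.0 reads in the control library and 39.0 in the knockdown library. The depth-scaled ratio had a median of 0.878 (quartiles 0.817 and 1.03), against 0.902 over 12932 genes (0.778 and 1.06). Before scaling by depth, fewer reads were found in the knockdown library at 52 of 62 members, against 84.1% of all genes. The lowest ratio was 0.542 (0.258 to 1.08) at EIF2S3, the gamma subunit of EIF2, with 28 and 13 reads. The highest was 2.33 (1.37 to 4.09) at EEF1A2. The interval of EIF1, with 204 and 128 reads and a ratio of 0.732 (0.582 to 0.918), took in the median over all genes.

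**Figure D4:**
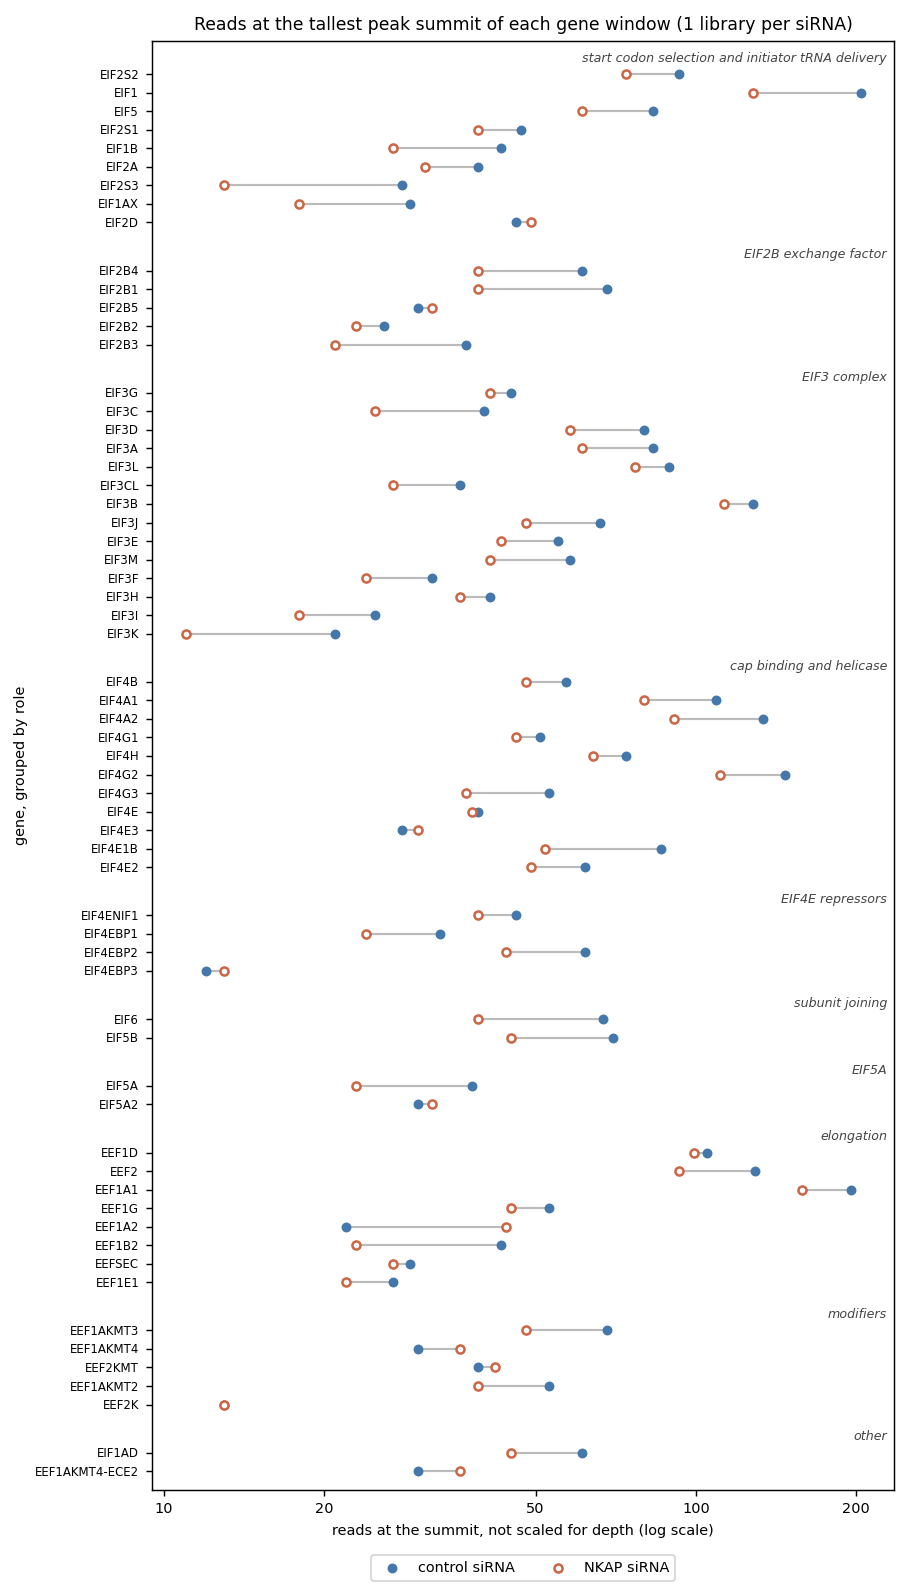
Reads at the tallest peak summit in the window of each of 62 genes, on a log scale and not scaled for depth, with the control siRNA library as filled and the NKAP siRNA library as open points, grouped by role. EIF1 and EEF1A1 stand highest in the control library (204 and 196 reads), and EEF1A2 is the gene whose open point lies farthest to the right of its filled point (22 and 44 reads).

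Among the factors of start codon selection and initiator tRNA delivery, 9 of 10 genes had peaks and all 9 had less covered length in the knockdown list. EIF1B, the paralog of EIF1, had 2161 bp (control) and 908 bp (knockdown). At EIF2S3 the lengths were 1875 and 896 bp. These were the 2 genes of this role at or under 0.5 times, and EIF2S3 stood at 0.864 times with no flank. EIF1 stood at the other extreme, at 0.957 times its control length, so that EIF1 and EIF1B, which encode nearly the same protein, differed in level and in the share of cover kept. EIF5, the activator of EIF2's GTPase, had 5606 and 2911 bp with 83 and 61 reads. EIF2S1, which carries the regulatory phosphorylation site of EIF2, kept 0.906 times its length, and EIF2S2, EIF1AX, EIF2A and EIF2D lay between 0.561 and 0.703 times. The peaks at EIF2S1 and EIF2A also touched an end of a neighbour, ATP6V1D and SERP1, and could not be assigned to one gene.

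The 5 genes of EIF2B, the exchange factor that recharges EIF2 with GTP, all had less covered length in the knockdown list. Their sum went from 11.02 to 5.82 kb, a ratio of 0.529, the lowest of the roles. EIF2B2 had 1226 and 459 bp and EIF2B4 3843 and 1736 bp, both under 0.5 times. The value of EIF2B4 moved with the setting, from 0.452 times here to 0.965 with a flank of 1000 bp, 0.721 with 10000 bp and 0.651 with equal numbers of peaks, and it was at or under 0.5 times in 1 of 8 alternatives. EIF2B5, EIF2B1 and EIF2B3 lay at 0.555, 0.601 and 0.748 times. Reads at the summit were not uniformly lower, with 26 and 23 at EIF2B2 and 30 and 32 at EIF2B5, against 68 and 39 at EIF2B1. The start peaks of EIF2B1 and EIF2B4 also touched GTF2H3 and SNX17.

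The EIF3 complex is the scaffold that binds the small subunit, and all 14 of its genes had peaks, 13 of them with less covered length in the knockdown list. The sum went from 72.7 to 43.9 kb, a ratio of 0.604. EIF3F showed the lowest ratio of all members, 0.187, with 2707 bp under 4 control peaks and 505 bp under 1 knockdown peak. That peak was the start peak, with 32 reads in the control library and 24 in the knockdown library, and the 3 peaks in the interior and downstream had 11 to 21 reads in the control library. EIF3C, EIF3L and EIF3K were the other members at or under 0.5 times, at 0.359, 0.413 and 0.448. EIF3C went from 9102 to 3269 bp, EIF3L from 6825 to 2820 bp and EIF3K from 1342 to 601 bp. EIF3D, which contacts the cap on some mRNAs, went from 8708 to 4800 bp with 80 and 58 reads. At EIF3L the peak at its lower end, which also touched ANKRD54, had 89 and 77 reads, and the 5 control peaks in its interior had 9 to 16 reads and no counterpart. EIF3H was the single member of the complex with more cover in the knockdown list, by 47 bp of 2611. EIF3A, EIF3B, EIF3D, EIF3E, EIF3G, EIF3I, EIF3J and EIF3M lay between 0.503 and 0.791 times. The tallest summit of the complex was at EIF3B, with 128 and 113 reads, followed in the control library by EIF3L (89), EIF3A (83) and EIF3D (80). EIF3C and EIF3CL are nearly identical copies on chromosome 16, and their values, 0.359 and 0.682 times, are uncertain because reads of one can be placed at the other. The highest peak of EIF3G also touched PPAN and P2RY11.

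All 11 genes of cap binding and the EIF4A helicase had peaks, 10 of them with less covered length in the knockdown list. EIF4G3, a paralog of the scaffold EIF4G1, went from 4029 to 1356 bp (0.337 times) and EIF4G2 from 6408 to 3076 bp (0.480 times). EIF4G1 itself went from 8576 to 5345 bp, with 51 and 46 reads at its tallest summit. EIF4B, an activator of EIF4A, had the largest fall in bp after EEF1D, from 14745 to 8609 bp, and a summit of 57 and 48 reads. EIF4H fell from 6846 to 3521 bp. EIF4E, the cap-binding protein, had 2566 and 2049 bp with 39 and 38 reads, and its paralog EIF4E2 1391 and 1265 bp with 62 and 49 reads. EIF4E3, another paralog, had 2256 and 2522 bp. The peak counted for EIF4E1B lay at its 3′ end, with summits 486 bp (control) and 528 bp (knockdown) from that end, and touched TSPAN17. No peak lay at the start of EIF4E1B, a paralog known from oocytes, in either list.

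The 4 repressors of EIF4E were split, with 2 genes lower and 2 higher. EIF4EBP1, the main target of mTOR among them, had 2271 and 2547 bp with 33 and 24 reads. EIF4EBP2 had 2140 and 1427 bp with 62 and 44 reads, and EIF4ENIF1 2843 and 2460 bp. EIF4EBP3, the other gene with more cover beside EIF4EBP1, had the lowest control fold of all members (4.35), with 483 and 515 bp and 12 and 13 reads. Its control peak and its pair of knockdown peaks did not overlap, although the summits of all 3 lay within 1000 bp of its start. The higher cover of these 2 genes did not hold under every alternative. EIF4EBP1 had more cover in 5 of 8, and EIF4EBP3 in 2 of the 4 that left it a control peak.

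Of the genes of subunit joining, EIF5B went from 3238 to 2486 bp and EIF6, which keeps the subunits apart, from 9463 to 6377 bp. EIF5A, which helps the ribosome through stretches of proline, had 5465 and 4082 bp. Its paralog EIF5A2 had 2556 and 1613 bp with 30 and 32 reads. The tallest EIF5A peak lay downstream and touched GPS2 and NEURL4, and the main peak of EIF5B lay upstream at TXNDC9.

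The elongation factors kept the largest share of covered length among the roles of more than 4 genes, 0.773, from 59.8 to 46.3 kb. EEF1D, the exchange factor of EEF1A, had the largest fall in bp, from 18002 bp under 16 control peaks to 8373 bp under 11 knockdown peaks. The peak at its higher end, which also touched TIGD5, held 105 and 99 reads, while 8 control peaks of 11 to 20 reads, 7 of them in its interior, had no counterpart. EEF1G, another subunit of this exchange factor, went from 8395 to 5674 bp, and EEF1B2 from 1610 to 1381 bp with 43 and 23 reads. EEF1E1, a scaffold of the tRNA synthetase complex, had 949 and 684 bp. EEFSEC, which delivers selenocysteine, had 960 and 1093 bp with 29 and 27 reads. The peaks of EEF1B2 and EEFSEC also touched NDUFS1 and RUVBL1.

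EEF1A2, the paralog of EEF1A1 known from neurons and muscle, was the gene with the largest gain in window cover. It lies on chromosome 20 from 63488014 to 63499083. In the control list 2 peaks covered 1887 bp, and in the knockdown list 4 peaks covered 3726 bp, or 1.98 times as much. With no flank the ratio was 0.942, below 1. Of the 7 alternatives that left EEF1A2 a control peak, 6 gave more cover in the knockdown list. The peak at its higher end had 22 reads in the control library (13.8 to 33.3) and 44 in the knockdown library (32.0 to 59.1). The local background there was also higher in the knockdown library, at 4.00 reads against 2.39 in the control library. The 2 knockdown peaks at and below its lower end, with 26 and 19 reads, had no control counterpart, and the third site, in the flank, had 18 and 17 reads. Both EEF1A genes were thus at or above 0.985 times their control length in windows with the 5000 bp flanks. Their levels were very different, 196 and 158 reads at EEF1A1 against 22 and 44 at EEF1A2.

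Of the 6 genes for enzymes that modify the elongation factors, 5 had peaks, 4 of them with less covered length in the knockdown list. EEF2K, the kinase that inhibits EEF2, had 229 and 332 bp with 13 reads in each library. EEF1AKMT2 had 1635 and 1309 bp, EEF1AKMT3 4301 and 2430 bp, EEF1AKMT4 3919 and 3582 bp and EEF2KMT, which methylates EEF2, 1678 and 852 bp. The main peaks of EEF1AKMT3 and EEF1AKMT4 also touched METTL1 and ALG3. The readthrough gene EEF1AKMT4-ECE2 has the same window peaks as EEF1AKMT4 and adds no evidence. EIF1AD, a nuclear protein of ribosome assembly, had 4364 and 3074 bp, and its start peak touched BANF1.

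Neighbours matter for many of these values. Of the 254 control peaks 58 lay within 1000 bp of an end of another protein-coding gene, and of the 185 knockdown peaks 57 did. Without the peaks within 1000 bp of an end of a protein-coding gene outside the group, 53 genes had a peak in each list. The covered ratio was then 0.673. Of the control peaks 54.7% were overlapped by a knockdown peak (exact binomial 95% interval 48.4 to 61.0), against 55.7% over the windows of all genes. Of the knockdown peaks 86.5% were overlapped by a control peak (80.7 to 91.1), against 85.5%. The 115 control peaks without a counterpart were low and narrow, at medians of 5.32 for the fold and 390 bp for the width, where the 139 with one had 10.7 and 1391 bp. Over the windows of all genes the control medians were close to these. They were 5.49 and 386 bp without a counterpart, and 10.8 and 1308 bp with one.

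Other genes of translation, termination and recycling factors, poly(A)-binding proteins and mitochondrial factors among them, had a ratio of covered length of 0.610 over 29 genes, from 113.6 to 69.4 kb. Peaks were found at 27 (control) and 25 (knockdown), against 70.1% and 66.5% of all genes. Of the 27, all had less cover in the knockdown list, against 86.1% of all genes. At or under 0.5 times were 8 of the 27, against 28.4% of all genes. GFM1, a mitochondrial elongation factor, and GSPT2, a termination factor, had a control peak only, with folds of 9.36 and 4.77. Of all genes with a peak, 7.43% had a control peak only. TPT1 kept 10129 of 12204 bp and DDX3X 5086 of 5677 bp, while PABPC1, the main poly(A)-binding protein, went from 18762 to 7462 bp. MKNK1 and MCTS1 had no peak.

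As a check of the labelled cells, 6 of 9 osteoblast lineage markers had a window peak in each list, against 70.1% (control) and 66.5% (knockdown) of all genes. SP7, SPARC, COL1A1 and BGLAP had it at an end, RUNX2 and ALPL away from their ends, and IBSP, SPP1 and COL1A2 had none. All 4 hepatocyte and all 3 keratinocyte markers had none. Of 4 lymphocyte markers 2 had a window peak away from their ends (PTPRC and MS4A1). All 3 neuron markers had a window peak, at an end of SYT1 and SNAP25 and away from the ends of RBFOX3. These counts do not by themselves tell the cell type. Covered lengths of the osteoblast markers were 36.0 and 12.6 kb. Their part in the values above was not tested.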

How the data were processed

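Pol II ChIP-seq peak lists of 2 libraries, 1 per siRNA, were analysed. The submitters' processing notes name MACS2 2.1.0 and Bowtie 1.1.2 beside Trimmomatic 0.33 and bcl2fastq 2.17, with build hg38. How they were set was not given in the sources used here. The deposited lists give per peak a score, a fold (ratio over local background), −log10 p and q values and the summit's offset, all made by the authors. They hold 38563 (control) and 27913 (knockdown) peaks with a −log10 q of at least 3.01 and 3.02. Peaks off chromosomes 1 to 22 and X (5.75% and 5.47%) were left out.

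Covered length was the number of window bases under any peak. Reads at each summit were recovered as the whole number that fits both the fold and the −log10 p within 0.01 of the deposited value, which succeeded at all peaks. They had a median of 18 (control) and 19 (knockdown) and a minimum of 8. Depths were taken from the lists' lowest local backgrounds. Ratios carry exact conditional 95% intervals. The step was checked on simulated data. Gene positions and promoters came from RefSeq (GRCh38.p14), and strand, from the promoter table, was at hand for 52 members. Python 3.11.15, pandas 2.3.3, numpy 2.4.6, scipy 1.17.1 and matplotlib 3.10.9 were used.

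Every member is named under its role. Described more fully are the 8 of highest fold, the 6 largest losses and gains in bp, those at most 0.5 or at least 2 times the control length, and paralogous pairs. Members and lists were chosen with earlier results of these data known. TATAA and the depth-scaled reads were added after seeing the data. Alternatives changed the window, assignment, threshold, list length, overlap and neighbours.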

Additional observations from a re-analysis of the deposited data

How the results depend on the processing

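No paired analysis was possible because each siRNA had 1 Pol II library, and for the same reason no replicate could be left out. The covered ratio stayed below 1 under all 8 alternatives tried for it, and the cause of the shifts that follow was not tested. This ratio, 0.686, was 0.643 with no flank, 0.702 with 1000 bp, 0.664 with 10000 bp, 0.685 by summit, 0.691 at a −log10 q of at least 5, 0.765 with equal numbers of peaks, 0.777 with the strongest 10000 peaks of each list and 0.673 without peaks at ends of other genes. The share of control peaks overlapped, 54.7%, was 69.3% with equal numbers, 86.7% with the strongest 10000 and 46.9% without other genes' ends. It was 36.6% where the shared stretch had to be at least 50% of both peaks. The share of knockdown peaks, 86.5%, was 78.4% with equal numbers and 50.3% at that stricter overlap. Genes with more cover in the knockdown list, 7, numbered 11 with no flank, with equal numbers (19% of all genes) and with the strongest 10000 (20.1% of all genes). The share of all genes with no flank was not computed.

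Genes at or under 0.5 times, 11, numbered 18 with no flank and 5 with equal numbers (20.8% of all genes), where EIF4G3, EIF3C, EIF3F, EIF1B and EIF2S3 remained. No share of all genes was computed with no flank, without other genes' ends, or for gene-end peaks under any alternative. Those counts cannot be set against the background. Genes at or above 2 times, 0, numbered 1 with no flank, at the stricter q and with equal numbers (EIF4EBP3 each time), 1 without other genes' ends (EIF2S1) and 3 with the strongest 10000 (EIF2B5, EIF3CL and EEF1A2), where all genes had 3.55% at the stricter q, 5.59% with equal numbers and 9.52% with the strongest 10000. Gene-end peaks in both lists, at 61 genes, were left at 39 without other genes' ends. Those in the control list only, 0, numbered 1 by summit (EIF5A), 1 at the stricter q (EIF4EBP1), 5 with the strongest 10000 and 5 without other genes' ends. Those in the knockdown list only, 0, numbered 1 by summit (EIF5B), 1 at the stricter q and 1 with equal numbers (EIF4EBP3 both times) and 4 with the strongest 10000. Of the 55 genes with less cover, 36 had less in every one of the 8 settings that left a control peak, and of the 7 with more cover, 2 did so (EEFSEC and EEF2K). The lowest summits of the lists held 8 reads, and intervals at such counts are wide.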
